A study of Mus musculus with 4 samples.

Results

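The genes described here serve the endoplasmic reticulum (ER) stress response, protein folding in the ER and the supply of amino acids. They are 36 genes listed by known function, with earlier results of these data known when the list was made. All 36 were found among the 12393 genes measured on the arrays. Each was represented by its brightest probe set, a group of short probes for 1 transcript. Of the 36, 34 were bright enough to be tested.

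When unfolded proteins build up in the ER, the sensors PERK (Eif2ak3), IRE1 (Ern1) and ATF6 signal to the nucleus. ATF6 and XBP1 switch on chaperones, folding enzymes and the machinery that removes misfolded proteins. PERK phosphorylates eIF2 alpha, which favours translation of ATF4, a factor that induces amino acid transporters, synthesis enzymes and tRNA synthetases and that also answers to amino acid shortage. Pigment cells send large amounts of glycosylated membrane protein, tyrosinase among them, through the ER on the way to melanosomes.

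RNA came from melanocyte cultures of female mice, grown from tail epidermis in a serum-free melanocyte medium over 6 to 8 weeks. The 2 wild-type cultures were from C57BL/6 mice, and the 2 others from AhRtm1Bra mice, which lack exon 2 of the aryl hydrocarbon receptor gene. The receptor (AhR) is a transcription factor activated by dioxins and other ligands. Each array held RNA from an individual mouse (n = 2 per group), the labels used here give no age, and no culture was treated to provoke ER stress as far as the labels say. The question was which transcripts differ without the receptor.

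Over all 7436 tested genes, 71 passed the limma test at an adjusted p under 0.05, 15 of them higher and 56 lower in the knockout cultures (23 and 49 with the array medians set equal). Array medians lay between 89.5 and 98.4. Ahr itself, by its brightest probe set, had signals of 825 and 874 in wild type against 241 and 843 in knockout, and where it lies relative to the deleted exon was not analysed here. Cyp1b1, an AhR target, read 1216 and 1410 in wild type against 14.0 and 23.1 in knockout. The melanocyte markers Dct, Pmel, Tyr and Tyrp1 read at least 3189 on every array. The ratio of 3' to 5' control probe sets of Gapdh, which rises where 5' ends are under-represented, lay between 1.98 and 2.85 on the other arrays and was 11.9 in AhR knockout 2.

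Chaperone genes were mostly lower in AhR knockout cultures and amino acid genes mostly higher, and no single member passed the test. Of 16 chaperone, folding and degradation genes, 13 were lower, and the median of the 16 differences was -0.52 on the log2 scale (AhR knockout minus wild type). Of 10 tested amino acid genes, 9 were higher, with a median of 0.36. That tally depended on the probe sets: without those named _x_at or _s_at, 5 of 9 were higher and 4 lower, and with the mean of each gene's probe sets 7 of 10 were higher. The median over all tested genes was 0.0055, with 49.7% of them lower and 50.3% higher. Both medians are descriptions of lists and carry no test.

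In limma 0 of the 34 tested members passed at an adjusted p under 0.05, where 0.955% of all tested genes did (0.202% higher and 0.753% lower). The smallest adjusted p among members was 0.12. At an unadjusted p under 0.05 there were 7 members, or 20.6%, against 20.6% of all tested genes, so the members' share equals the background. They were Eif2ak3, Atf6, Atf3, Dnajc3 and Pdia3, which were lower, and Slc7a5 and Slc3a2, which were higher. With AhR knockout 1 left out, 5 of the 34 members passed at an adjusted p under 0.05 (14.7%, against 18.3% of all tested genes). With AhR knockout 2 left out, 7 of the 34 passed (20.6%, against 13.9%). Groups did not overlap, with both knockout arrays below both wild-type arrays, for 9 of 16 chaperone genes (56.2%, against 26.7% of all tested genes). Both knockout arrays lay above both wild-type arrays for 5 of 10 tested amino acid genes (28.7% of all tested genes).

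**Figure D1:**
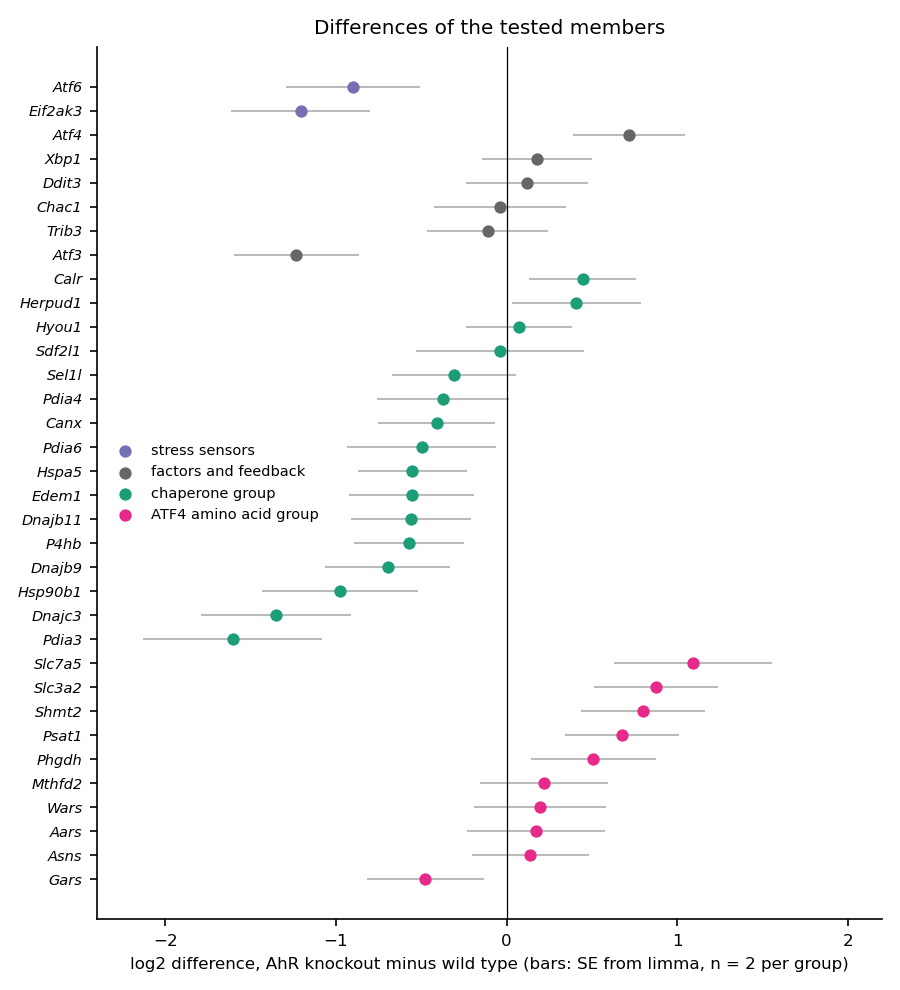
Log2 difference of each of the 34 tested members, AhR knockout minus wild type on the log2(signal + 16) scale, with bars for the SE from limma (n = 2 per group) and colours for the role of the gene. Chaperone members lie mostly left of 0 (13 of 16) and amino acid members mostly right of it (9 of 10), and 0 of the 34 passed the test.

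The stress sensors that could be tested were both lower. Eif2ak3, the PERK kinase, read 823 and 909 in wild type against 503 and 265 in knockout, so the groups did not overlap. The difference on the log2 scale was -1.21 ± 0.41 (SE, n = 2 per group; limma adjusted p = 0.15). Atf6, the sensor that is cut in the Golgi to release a transcription factor, read 411 and 599 in wild type against 206 and 324 in knockout. Its difference was -0.90 ± 0.39 with adjusted p = 0.23, again with groups that did not overlap. Ern1, the IRE1 kinase and nuclease that splices Xbp1 mRNA, was too dim to test, with 47.7 and 9.70 in wild type against 35.2 and 45.2 in knockout.

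Among the factors that act below the sensors, Atf3 and Atf4 had differences of opposite sign. Atf3, a stress-induced factor of the same family as ATF4, read 310 and 215 in wild type against 101 and 100.3 in knockout. Both knockout arrays lay below both wild-type arrays, with a log2 difference of -1.23 ± 0.37 and adjusted p = 0.12. Atf4 read 2492 and 2197 in wild type against 3400 and 4383 in knockout, a difference of 0.72 ± 0.33 with adjusted p = 0.25. The other bright probe set of Atf4 read 2199 and 1760 in wild type against 3113 and 1132 in knockout, a difference of -0.065, so AhR knockout 2 was the lowest array there and the highest in the brightest one.

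The classical readouts of lasting ER stress had small differences with wide intervals. Ddit3, the CHOP factor that promotes cell death under lasting stress, read 890 and 938 in wild type against 911 and 1083 in knockout. Its difference was 0.12, with a 95% interval from -0.68 to 0.92, which spans changes in both directions. Trib3, a pseudokinase induced by CHOP and ATF4 that feeds back on them, differed by -0.11 with an interval from -0.91 to 0.68. Chac1, a glutathione-degrading enzyme downstream of ATF4, differed by -0.039, and AhR knockout 1 lay above both wild-type arrays while AhR knockout 2 lay below both. Xbp1 read 3207 and 3251 in wild type against 4214 and 3163 in knockout, a difference of 0.18 ± 0.32 with overlapping groups. These probe sets were not examined for telling spliced from unspliced Xbp1 mRNA.

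Of the large luminal chaperones, Hspa5 and Hsp90b1 were lower and Hyou1 was nearly level in its brightest probe set. Hspa5, the BiP chaperone that holds the sensors inactive, read 6697 and 7934 in wild type against 3985 and 6192 in knockout. The groups did not overlap, and the difference was -0.55 ± 0.32 with adjusted p = 0.35. Its further probe set gave a larger difference of -1.19. Hsp90b1, the ER form of HSP90, read 1079 and 1720 in wild type against 461 and 1016 in knockout, a difference of -0.98 ± 0.46. For both genes AhR knockout 1 was the lowest array in the brightest probe set. In the further Hspa5 probe set AhR knockout 2 was lowest, at 853 against 1050 in AhR knockout 1. A dimmer Hsp90b1 probe set read 141 and 126 in wild type, 105 in AhR knockout 1 and 522 in AhR knockout 2, a difference of 0.78, so the direction for Hsp90b1 depended on the probe set. Hyou1, an ER chaperone and nucleotide exchange factor for BiP, read 3487 and 3224 in wild type against 3377 and 3688 in knockout, a difference of 0.074, and a dimmer probe set differed by -1.14.

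The lectin chaperones, which hold glycoproteins while they fold, had differences of opposite sign. Canx, the membrane-bound calnexin, read 7697 and 10535 in wild type against 5068 and 9042 in knockout, a difference of -0.41 ± 0.34 with overlapping groups. Its further probe sets gave -1.17 and -1.09. Calr, the soluble calreticulin, read 5056 and 4773 in wild type against 5411 and 8279 in knockout, a difference of 0.45 ± 0.31. All 3 Calr probe sets were higher in knockout, by 0.38 to 0.48, and in each of them AhR knockout 2 was the highest array.

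The co-chaperones that bring clients to BiP were lower. Dnajc3, also called p58IPK, read 1252 and 2101 in wild type against 458 and 853 in knockout, a difference of -1.35 ± 0.44 with adjusted p = 0.14. Its 4 bright probe sets ranged from -1.91 to -0.077. Dnajb9 read 1926 and 2979 in wild type against 1424 and 1520 in knockout, a difference of -0.70 ± 0.37. Dnajb11 read 1410 and 1286 in wild type against 952 and 867 in knockout, a difference of -0.56 ± 0.35. In the probe sets used, the groups did not overlap in any of the 3 genes. A further Dnajc3 probe set had AhR knockout 2 at 340, above 228 and 237 in wild type. Another had it at 285, between 219 and 438, and the last bright probe set had both knockout arrays below both wild-type arrays. Sdf2l1, which works with Dnajb11 to keep clients soluble, split the knockout arrays: AhR knockout 1 read 948, above 703 and 490 in wild type, and AhR knockout 2 read 342, below both.

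The disulfide isomerases were lower mainly in AhR knockout 2. Pdia3, which acts on glycoproteins with calnexin and calreticulin, read 3049 and 3506 in wild type, 1983 in AhR knockout 1 and 567 in AhR knockout 2. It had the largest difference of all tested members, -1.61 ± 0.53 with adjusted p = 0.14 (a fold of 3.04), and its size came mostly from the second knockout array, since it was -0.72 in the first and -2.50 in the second. P4hb read 10109 and 9944 in wild type against 9000 and 5031 in knockout, a difference of -0.57 ± 0.32. Pdia6 differed by -0.50 and Pdia4 by -0.37, and in both the groups overlapped because AhR knockout 1 lay between the wild-type arrays. The 3' to 5' ratios of the Gapdh and beta-actin controls were 11.9 and 28.0 in AhR knockout 2, the array where these isomerases were lowest. The part of these ratios in the result was not tested.

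Genes of ER-associated degradation, which sends misfolded proteins back to the cytosol, did not share 1 sign. Edem1, which recognises trimmed glycans, read 1549 and 1536 in wild type against 1257 and 866 in knockout, a difference of -0.56 ± 0.37, with -1.17 in its further probe set. Sel1l, the adaptor of the HRD1 ligase, differed by -0.31 with groups that did not overlap. Herpud1, which is induced early under ER stress, read 632 and 424 in wild type against 730 and 657 in knockout, a difference of 0.41 ± 0.38. Its further probe set differed by 0.062, with AhR knockout 1 (555) above both wild-type arrays and AhR knockout 2 (272) below both.

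Over the chaperone group, the median difference was -0.22 for the first knockout array and -0.63 for the second, each against the wild-type mean. A total of 11 of 16 genes were lower in the first and 12 of 16 in the second. Without AhR knockout 2 the median was therefore -0.22 in place of -0.52. The wild-type arrays differed from each other by a median of 0.018 in this group, with wild type 1 above wild type 2 in 9 genes and below in 7. Endothelial markers were mostly lower too, 9 of the 10 tested, and the summed signal of the 12 listed was 22227 and 24350 in wild type against 14603 and 5895 in knockout. Emcn read 7391 and 10176 in wild type against 3321 and 1041 in knockout, and Cdh5 read 3114 and 2970 against 1634 and 367. Sox17 passed the limma test, with 1446 and 1531 against 365 and 76.4. Of the 12, 0 were listed at 0, while Vwf and Erg read at most 25.8 and 7.99 on any array. Of the fibroblast markers 2 of 4 tested were lower, with Col3a1 past the limma test at 372 and 439 against 95.1 and 50.5. The 8 listed summed to 1910 and 1662 against 1120 and 2438. Pdgfrb made up most of the last sum, at 2131 in AhR knockout 2, where Col3a1 and Fbln2 had their lowest signals. The part of other cells in the chaperone result was not tested. In bulk RNA, fewer cells of a type and less RNA per cell cannot be told apart.

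**Figure D2:**
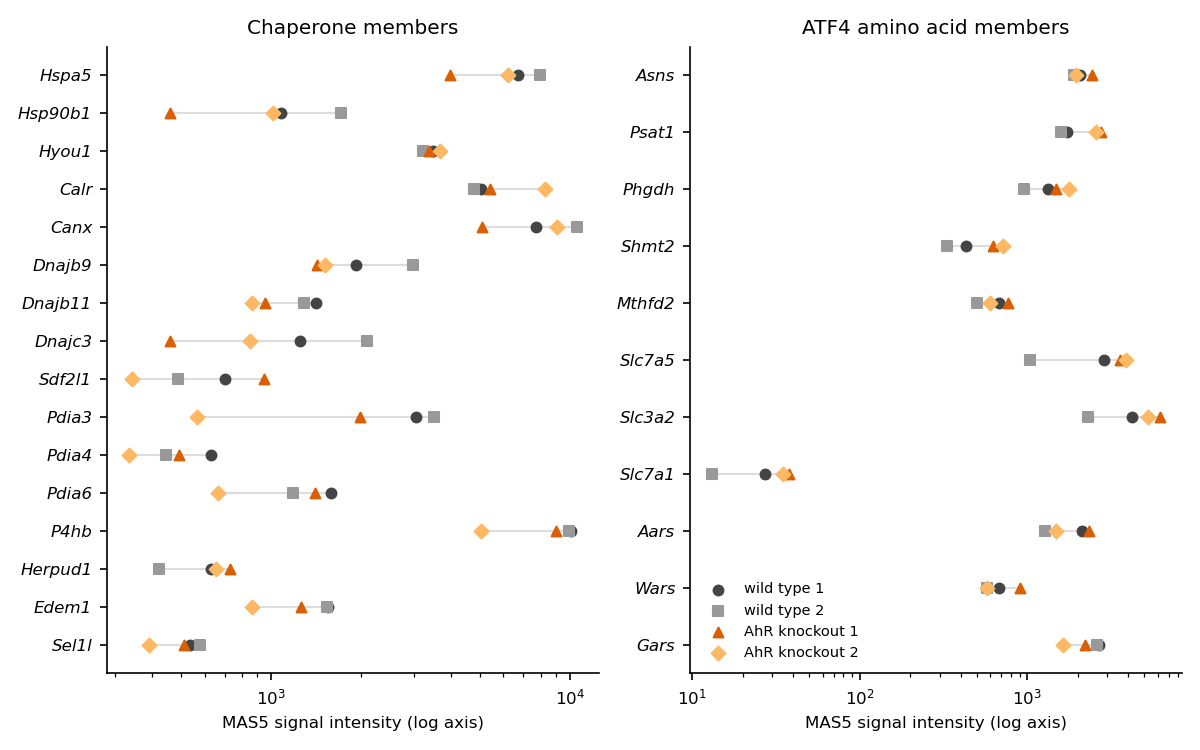
Signal of each chaperone member (left) and each amino acid member (right) on the 4 arrays, on a log axis of MAS5 signal intensity; the markers stand for individual arrays. For Pdia3 the AhR knockout 2 array (567) stands far below the other arrays, and for Slc7a5 the wild type 2 array (1043) stands far below the other arrays.

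Some promoters of the chaperone group shared a sequence tied to ATF6. The group was listed as genes of ATF6 and XBP1, so matches to their sites are not independent of its choice. The ER stress element (ERSE), bound by ATF6 with NF-Y, reads CCAAT, then any 9 bases, then CCACG. It was searched on both strands in RefSeq promoter windows of GRCm38.p6, from 250 bases before to 50 bases after the start of each transcript. Of the 36 members 32 had a window, and Hyou1, Wars, Atf6 and Slc7a5 are named only. The element was present in 6 of 15 chaperone members with a window, namely Hspa5, Hsp90b1, Calr, Canx, Dnajc3 and Pdia6, and in 0 of the 9 amino acid members. Of all 32851 windows 0.119% held it, and of all 27025 genes with a window, counted like the members, 0.137% did. A related element, ERSE-II, reads ATTGG, then any base, then CCACG. It was found in Herpud1 and Dnajb11, and in 0.0365% of all windows (0.0444% of genes). The XBP1 site TGACGTGG was found in 0 members and in 0.676% of all windows (0.714% of genes). ERSE and ERSE-II share the CCACG part, and 0 of the 17 matches to the motifs searched in member windows overlapped a match to another motif.

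The pieces below show these elements in capitals within their promoters, each written 5′ to 3′ on the strand of its gene, so that their spacing can be compared; Hsp90b1 holds 2 copies facing opposite ways, and Herpud1 holds an ERSE-II and, before it, the ATF4 element described further on.
Hspa5, chr2:34772013-34772055, plus strand: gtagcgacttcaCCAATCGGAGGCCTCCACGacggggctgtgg
Canx, chr11:50325788-50325830, minus strand: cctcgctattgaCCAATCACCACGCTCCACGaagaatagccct
Dnajc3, chr14:118937815-118937857, plus strand: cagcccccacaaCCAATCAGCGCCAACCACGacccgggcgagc
Pdia6, chr12:17266479-17266521, plus strand: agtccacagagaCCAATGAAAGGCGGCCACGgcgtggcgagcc
Calr, chr8:84847063-84847105, minus strand: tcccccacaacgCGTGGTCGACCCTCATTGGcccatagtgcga
Hsp90b1, chr10:86705521-86705668, minus strand: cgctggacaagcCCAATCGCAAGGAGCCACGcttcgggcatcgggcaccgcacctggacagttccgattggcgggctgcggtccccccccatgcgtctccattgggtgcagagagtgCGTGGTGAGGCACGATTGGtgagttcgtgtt
Herpud1, chr8:94386305-94386399, plus strand: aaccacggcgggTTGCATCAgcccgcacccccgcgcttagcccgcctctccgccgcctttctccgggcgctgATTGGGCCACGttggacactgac

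In Hspa5 the element starts 65 bases before the transcript start, and in Calr, where it faces the other way, 162 bases before it. The 6 chaperone members with the element had a median log2 difference of -0.52, with 5 of 6 lower. The 9 with a window and without the element had a median of -0.56, with 8 of 9 lower. A match is a description of the letters and not evidence of binding in these cells.

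The amino acid transporters had the largest positive differences of all tested members. Slc7a5 encodes LAT1, the exchanger for large neutral amino acids that also takes up tyrosine, the raw material of melanin. It read 2884 and 1043 in wild type against 3560 and 3886 in knockout, a difference of 1.09 ± 0.46 with adjusted p = 0.22. Slc3a2, the heavy chain that brings LAT1 to the cell surface, read 4205 and 2292 in wild type against 6173 and 5277 in knockout, a difference of 0.87 ± 0.36 with adjusted p = 0.215. In both genes the groups did not overlap, and wild type 1 lay closer to the knockout arrays than to wild type 2. The wild-type arrays differed from each other by 1.45 for Slc7a5 and 0.87 for Slc3a2. Slc7a1, the cationic amino acid transporter CAT1, was too dim to test, with 27.4 and 13.2 in wild type against 37.9 and 34.9 in knockout.

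Enzymes of serine synthesis and of mitochondrial one-carbon metabolism were higher in knockout. Psat1, the transaminase of the serine pathway, read 1721 and 1594 in wild type against 2766 and 2560 in knockout, a difference of 0.68 ± 0.33 with adjusted p = 0.28. Phgdh, which opens that pathway, read 1335 and 958 in wild type against 1479 and 1765 in knockout, a difference of 0.51 ± 0.37. Shmt2, which passes the carbon of serine to folate in mitochondria, read 434 and 331 in wild type against 626 and 719 in knockout, a difference of 0.80 ± 0.36 with adjusted p = 0.25. In the probe sets used, the groups did not overlap in any of these 3, while they did in further probe sets of Psat1 and Phgdh. Mthfd2, the next mitochondrial enzyme, differed by 0.22, with AhR knockout 2 at 603 between 678 and 502 in wild type.

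Asparagine synthetase and the tRNA synthetases had smaller differences than the transporters. Asns, a standard target of ATF4, read 2064 and 1911 in wild type against 2447 and 1959 in knockout, a difference of 0.14 with a 95% interval from -0.62 to 0.90. Aars and Wars, which charge tRNA with alanine and tryptophan, differed by 0.17 and 0.20 with overlapping groups. Gars, which charges tRNA with glycine, was the 1 amino acid member that was lower, with 2689 and 2624 in wild type against 2218 and 1637 in knockout. Its difference was -0.48 ± 0.34.

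The wild-type cultures differed in this group as much as the genotypes did. Wild type 1 was above wild type 2 in all 10 tested amino acid genes, by a median of 0.40 on the log2 scale, against a median group difference of 0.36. Over all tested genes the same median was 0.067. Without wild type 1 the group's median difference was 0.63, and without wild type 2 it was 0.18. The median was 0.51 for the first knockout array, with 9 of 10 genes higher, and 0.33 for the second, with 6 of 10 higher. Melanocyte markers were mostly higher too, 6 of the 8 tested. The 2 lower were Kit, at 1235 and 900 in wild type against 558 and 273 in knockout, and Mitf, which differed by -0.41. In neither did the groups overlap. The summed signal of the 8 was 68496 and 54835 in wild type, the first again above the second, against 80043 and 106428 in knockout. Dct, Tyrp1 and Pmel made up most of the last sum, at 32201, 30093 and 23074 in AhR knockout 2. Leukocyte markers summed to 1697 and 1705 against 3770 and 3393, a sum carried in knockout by Lyz2 (2628 and 2776). Of the 4 tested, 3 were higher and 1 lower. The lower was Cd68, at 819 and 578 in wild type against 808 and 208 in knockout, with overlapping groups. Ptprc and Itgam read at most 26.1 and 10.2 on any array. Schwann cell markers summed to 985 and 1478 against 2980 and 5817, nearly all of it S100b. Of 7 keratinocyte markers measured, 4 were tested. Krt5, Krt14 and Krt6a read at most 69.5 outside AhR knockout 1, so they passed the signal filter only through that array. That all 4 were higher by group mean is therefore not independent of the filter, and in 3 of them the groups overlapped. The 7 keratinocyte markers summed to 203 and 245 in wild type against 1411 and 309 in knockout. Krt14 read 539 on the first knockout array and at most 30.8 elsewhere. The part of the cell mixture in the amino acid result was not tested.

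**Figure D3:**
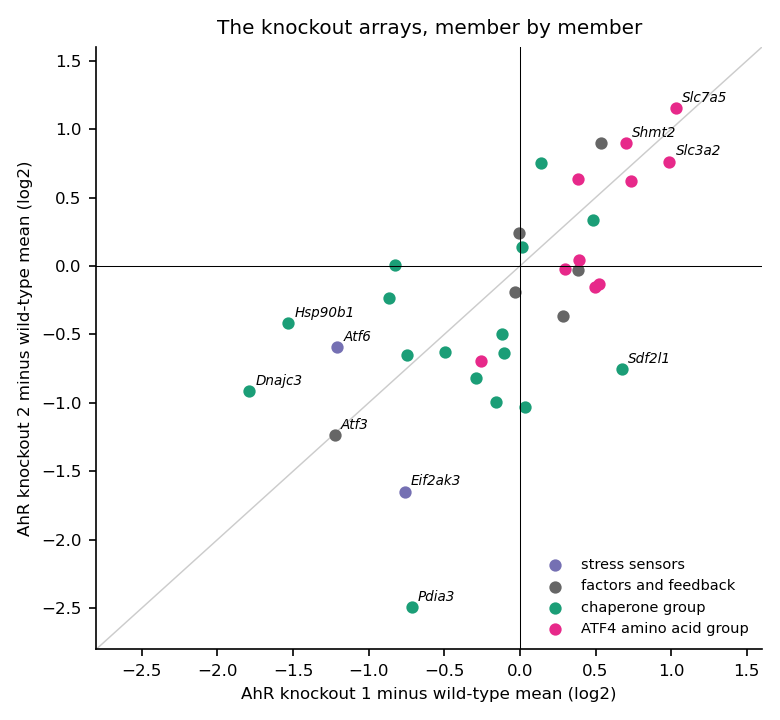
Log2 difference of each tested member from the wild-type mean in AhR knockout 1 (horizontal) and AhR knockout 2 (vertical), coloured by role, with a diagonal of equal difference. Slc7a5, Shmt2 and Slc3a2 lie high in both arrays and Atf3 low in both, while Pdia3 is at -0.72 and -2.50 and Sdf2l1 has opposite signs.

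Promoters of this group were searched for the C/EBP-ATF response element (CARE), the site at which ATF4 acts, as TGATGNAA on both strands. It was found in 3 of 9 amino acid members with a window, Asns, Aars and Gars. It was also found in 3 of 6 factors and feedback genes, Atf3, Trib3 and Chac1, and in Herpud1 of the chaperone group. Of all windows 3.97% held it, and of all genes with a window, counted like the members, 4.51% did. The amino acid group was listed as genes of ATF4, so these matches are not independent of its choice. Asns, whose element is the known nutrient-sensing site, carries it 23 bases before the transcript start. The pieces below show the element in capitals on the strand of each gene; those reading TTGCATCA or TTTCATCA carry it on the opposite strand.
Asns, chr6:7693213-7693244, minus strand: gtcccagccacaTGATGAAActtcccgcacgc
Gars, chr6:55037959-55037990, plus strand: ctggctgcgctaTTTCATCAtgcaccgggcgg
Atf3, chr1:191183424-191183455, minus strand: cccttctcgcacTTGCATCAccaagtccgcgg
Chac1, chr2:119351037-119351068, plus strand: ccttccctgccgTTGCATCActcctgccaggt

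The amino acid members with the element had differences of 0.14, 0.17 and -0.48, a median of 0.14. The 5 tested members with a window and without the element, Psat1, Phgdh, Shmt2, Mthfd2 and Slc3a2, had a median of 0.68. Of the factors and feedback genes with the element, Atf3 differed by -1.23, and Trib3 and Chac1 by -0.11 and -0.039. The windows end 250 bases before the start, and elements farther away or inside genes were not searched.

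**Figure D4:**
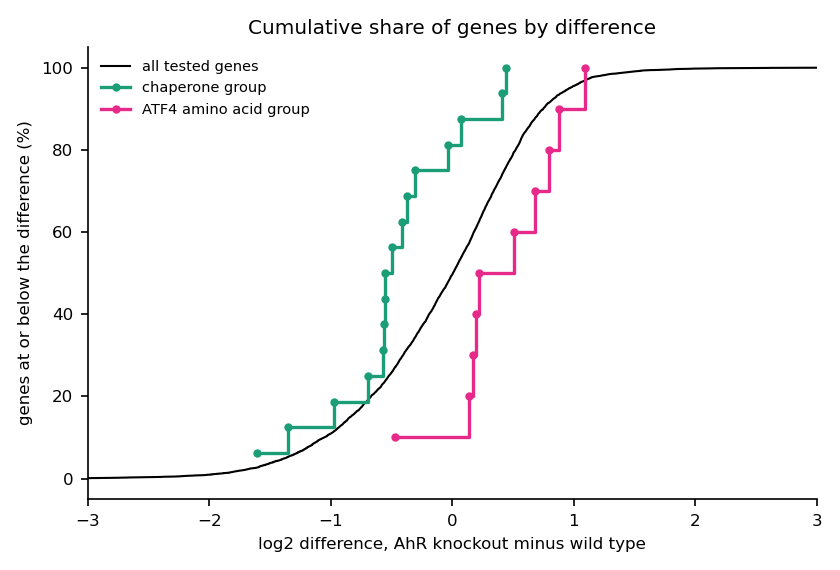
Share of genes (percent, vertical) at or below each log2 difference, AhR knockout minus wild type (horizontal), for all 7436 tested genes, the 16 chaperone members and the 10 tested amino acid members. The chaperone curve runs mostly to the left of all genes (median -0.52) and the amino acid curve to the right (median 0.36), around an overall median of 0.0055.

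Several results depended on which probe set stood for the gene. Of 19 members with more than 1 probe set as bright as the tested genes, 10 had probe sets that went 1 way and 9 had probe sets of both signs. The 9 were Atf4, Xbp1, Trib3, Hyou1, Hsp90b1, Aars, Asns, Mthfd2 and Wars. Probe sets whose names end in _x_at or _s_at hold probes that may match more than 1 transcript. They stood for 6 of the 10 tested amino acid genes and for 2 of the 16 chaperone genes.

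The kinds of probe set differed in both knockout arrays, more widely in AhR knockout 2. Over the members' 23 bright probe sets with such names, the median difference from wild type was 0.31 for AhR knockout 1 and -0.020 for the second. Over the other 40 it was 0.014 and -0.63. The kinds cover different mixes of genes, so kind of probe set and gene group are not separated by these medians. With _x_at and _s_at probe sets left out, the amino acid median was 0.042 over 9 tested genes, in place of 0.36, and the chaperone median was -0.56. Psat1 then differed by 0.042 in place of 0.68, Asns by -0.24 in place of 0.14, and Xbp1 by -0.40 in place of 0.18. Slc7a5 and Slc3a2 each have a single probe set of another kind, which that choice does not touch. The part of the 3' to 5' ratio in these differences was not tested.

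**Figure D5:**
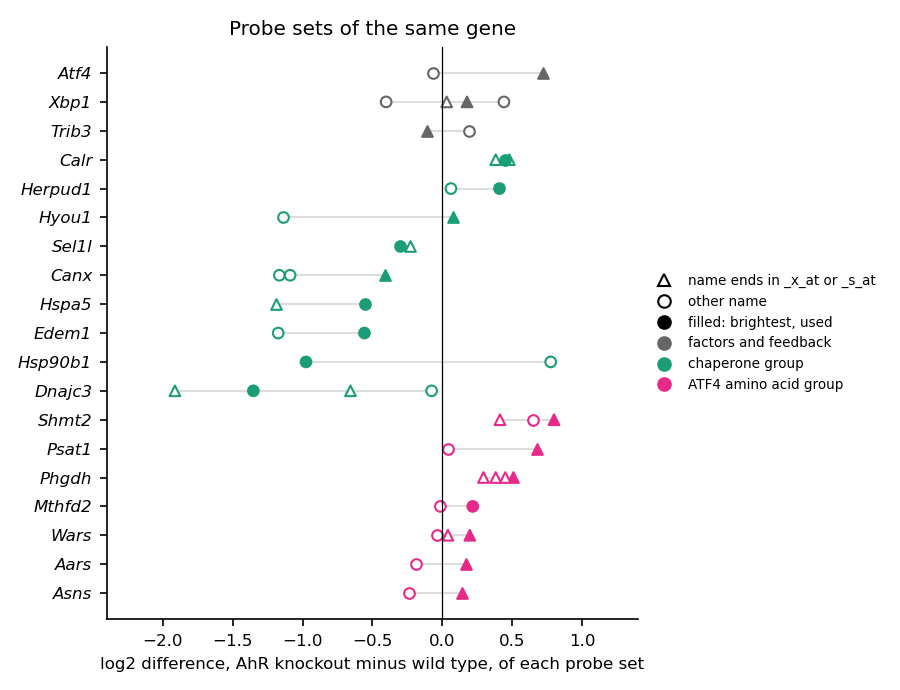
Log2 difference, AhR knockout minus wild type, of every bright probe set of the 19 members that have more than 1, with triangles for names ending in _x_at or _s_at, circles for other names, and filled symbols for the brightest probe set, which was used. For Hspa5, Canx and Edem1 the further probe sets are lower than the one used (as far as -1.19), and for Atf4, Asns and Psat1 they are closer to 0 or negative.

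Other genes of the same pathways were taken from lists of function, also made with earlier results of these data known. Of 35 further ER folding, translocation and degradation genes, 32 were measured and tested, 13 were higher and 19 lower, with a median of -0.10. In limma 0 passed; at an unadjusted p under 0.05, 0 were higher and 6 lower (background 7.68% higher and 12.9% lower). Edem3, a mannosidase of ER-associated degradation, read 1774 and 3218 in wild type against 553 and 906 in knockout, a difference of -1.73 ± 0.43 with adjusted p = 0.078. Ssr3 and Ssr1, parts of the complex beside the translocon, differed by -1.60 and -1.15, and Ero1a, the oxidase that recharges disulfide isomerases, by -1.30. The groups did not overlap in any of these 4, which were picked by smallest p. Of the 32, both knockout arrays lay below both wild-type arrays in 9 (28.1%, against 26.7% of all tested genes). They lay above both in 5 (15.6%, against 28.7%). On the higher side Derl1, a membrane channel protein of degradation, differed by 0.56, Os9 by 0.56, the proline isomerase Ppib by 0.53 and Ssr2 by 0.28.

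Further ATF4 and amino acid genes were divided between higher and lower. Of 37 listed, 34 were measured and 28 tested, 13 higher and 15 lower, with a median of -0.055. In limma 0 passed; at an unadjusted p under 0.05, 2 were higher and 6 lower, together 28.6% of the 28 against 20.6% of all tested genes. Slc38a2, the glutamine and alanine transporter SNAT2, read 6525 and 8987 in wild type against 3129 and 2956 in knockout, a difference of -1.33 ± 0.31 with adjusted p = 0.069. This is opposite in sign to Slc7a5 and Slc3a2. Cebpg, a partner of ATF4, read 735 and 1184 in wild type against 287 and 312 in knockout, a difference of -1.59 ± 0.39 with adjusted p = 0.075. The synthetases Eprs and Tars differed by -1.17 and -1.07. Gpt2, which makes alanine in mitochondria, differed by 0.96, Atf5 by 0.89, and the stress-induced mTORC1 inhibitors Ddit4 and Sesn2 by 0.69 and 0.69. Groups did not overlap in any of these 8 genes, which were picked by smallest p. Of the 28 tested, both knockout arrays lay above both wild-type arrays in 8 (28.6%, against 28.7% of all tested genes). They lay below both in 10 (35.7%, against 26.7%).

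Of 7 synthetases outside the usual ATF4 set 6 were tested, 3 higher and 3 lower. In limma 0 passed, and 2 had an unadjusted p under 0.05 (33.3%, against 20.6% of all tested genes), with opposite signs. Rars, for arginine, read 2886 and 3921 in wild type against 1573 and 1408 in knockout, a difference of -1.17, and Qars, for glutamine, differed by 0.86. Among genes named from the further lists, Derl1, Gpt2, Qars and Farsb, all higher, stand on probe sets ending in _x_at or _s_at. Other probe sets of the further lists were not compared. Kars, Farsa, Hars and Farsb differed by -0.090, -0.014, 0.091 and 0.14, with overlapping groups. Of the other eIF2 alpha kinases Eif2ak4, the GCN2 kinase that senses uncharged tRNA, differed by -0.60 and Eif2ak1 by -0.33, and Eif2ak2 was too dim to test.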

How the data were processed

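The authors' deposited values are linear signal intensity from 1-colour Affymetrix arrays, made with MAS5 per the submitters' processing notes. No version or detection call is given in the sources used here. Groups were taken from the sample titles, and 0 columns were left over. Of 22690 probe sets 20380 carried 1 gene symbol in the platform annotation, with 20351 updated through RefSeq gene identifiers, which gave 12393 genes. Values were converted to log2(signal + 16), which understates the differences of dim genes. Genes in the top 60% by mean signal (lowest mean 81.1) were tested with limma 3.58.1 (lmFit, eBayes with trend, two-sided, Benjamini-Hochberg over 7436 genes) in R 4.3.3, which was tested on simulated data. An exact permutation test of 2 against 2 arrays cannot go below p = 0.333. Promoter sequences are RefSeq's. Not every promoter piece with a match is printed here. Figures used matplotlib 3.10.9 in Python 3.11.15. Every member was named, and up to 4 higher and 4 lower genes of each further list by smallest p. The members and lists were chosen with earlier results of these data known. Alternatives changed the normalization, pseudocount, filter, probe sets, model, block and arrays. The number of arrays limits the precision.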

Additional observations from a re-analysis of the deposited data

How the results depend on the processing

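The count of 71 genes past the threshold was 26 with quantile normalization, 43 with a pseudocount of 1, 1 without the signal filter, 20 with the top 40% of genes, 40 without _x_at and _s_at probe sets (chosen after seeing the data) and 364 at an adjusted p under 0.10. It ran from 20 to 1360 with each array left out in turn. With the replicate number of the titles as a block, 1406 genes (18.9%) and 7 members (20.6%) passed (Atf3, Atf6, Dnajc3, Eif2ak3, Hsp90b1 and Pdia3 lower, Slc7a5 higher). Whether the numbers pair the mice is not stated, and the deviations of same-numbered arrays from their group means correlated at 0.353 across genes over 2 pairs. Between 0 and 7 members passed with an array left out: 5 without AhR knockout 1 (with 1360 genes in all, 18.3%), 7 without AhR knockout 2 (1031 genes, 13.9%) and 0 without either wild-type array, the lone array being assumed to vary like the other group. In every other alternative 0 members passed. The chaperone median ran from -0.63 to -0.22 and the amino acid median from 0.18 to 0.63 with an array left out, and without _x_at and _s_at probe sets the latter was 0.042.

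Of 34 tested members 21 kept their sign in all 16 alternatives that gave a value. Signs turned under quantile normalization for Chac1 (0.090), Sdf2l1 (0.084) and Trib3 (0.031), and with equal medians for Chac1 (0.048) and Sdf2l1 (0.049). With the mean of probe sets they turned for Aars (-0.0090), Asns (-0.050), Hyou1 (-0.28), Pdia4 (0.23) and Trib3 (0.039). Without _x_at and _s_at probe sets they turned for Aars (-0.19), Asns (-0.24), Atf4 (-0.065), Hyou1 (-1.14), Trib3 (0.19), Wars (-0.039) and Xbp1 (-0.40). With each array left out in turn the sign turned at least once for Chac1 (-0.36 to 0.28), Sdf2l1 (-0.75 to 0.68), Aars (-0.19 to 0.53), Asns (-0.020 to 0.30), Canx (-0.83 to 0.0060), Wars (-0.13 to 0.52), Xbp1 (-0.030 to 0.38), Ddit3 (-0.0048 to 0.24) and Pdia6 (-1.03 to 0.033). The cause was not tested.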
